A study of Mus musculus with 6 samples.

Results

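The ETS and SOXF transcription factor genes that act at the haemangioblast stage were described as a set of 8 mouse genes. They are the ETS genes Etv2, Fli1, Erg and Ets1, the SOXF genes Sox7, Sox17 and Sox18, and the homeobox gene Hhex. Members were found by gene name among the probe sets that the array annotation gives to exactly 1 gene, 34945 in all. The 8 genes had 15 such probe sets, and for each gene its brightest probe set, by the mean of the 6 arrays, stands for it, as for the other genes of the 18193 tested. The 6 arrays came from Flk1-positive cells, called BL-CFCs in the labels, which had been sorted from embryoid bodies of day 4. In 3 of them the ES cells were Ldb1+/+ (wild type) and in 3 Ldb1-/- (knockout), and all cells were grown in the same medium without Leukemia Inhibitory Factor. The labels do not say how the knockout was made or how many ES cell clones were used, and each genotype's arrays are numbered 1 to 3 as biological replicates. Values are log2 levels, so that a difference of 1 is a doubling.

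The haemangioblast is a mesodermal precursor of blood and endothelium, marked by the VEGF receptor FLK1, which the gene Kdr encodes. In the mouse ETV2 is switched on briefly in this mesoderm and is needed for both lineages. It activates Fli1, Erg and other ETS genes, which then keep endothelial and blood programmes on. ETS proteins recognise a GGAA core in DNA. SOX7, SOX17 and SOX18 form the F group of the SOX family and act in early haemogenic and arterial endothelium. HHEX is a homeodomain repressor of early blood and endothelial progenitors. Sox17 and Hhex are also well known from definitive endoderm, so their RNA alone does not tell which cells made it. LDB1 is an adaptor that joins GATA and E-box binding factors through LMO2.

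Promoter sequence is shown for Etv2 and Hhex, the 1 member with a higher mean in knockout and one with a lower mean, which differed in opposite directions on replicate number 3. Each window holds the 250 bases before the annotated start, from RefSeq on GRCm38.p6. Capitals mark every match, on either strand, to the ETS core GGAA or to any of 4 longer motifs. These were CGGAAG for ETS factors, then AGATAA for GATA factors, then CANNTG for the E-box, and last ACAATG for SOX factors. The Etv2 window is chr7:30635853-30636102 on the minus strand and the Hhex window is chr19:37434591-37434840 on the plus strand.
Etv2: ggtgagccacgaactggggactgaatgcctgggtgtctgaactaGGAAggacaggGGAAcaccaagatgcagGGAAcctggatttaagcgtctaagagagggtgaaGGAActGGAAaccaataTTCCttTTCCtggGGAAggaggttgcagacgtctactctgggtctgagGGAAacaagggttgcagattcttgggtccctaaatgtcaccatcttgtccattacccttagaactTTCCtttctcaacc
Hhex: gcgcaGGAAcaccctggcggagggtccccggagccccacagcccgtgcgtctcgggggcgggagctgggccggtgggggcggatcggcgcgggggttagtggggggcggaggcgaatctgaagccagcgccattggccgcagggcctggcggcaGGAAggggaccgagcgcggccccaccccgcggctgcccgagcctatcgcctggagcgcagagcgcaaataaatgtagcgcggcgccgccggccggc
All capitals in both windows are ETS cores. The Etv2 window held 10 of them against a median of 3 over 32851 promoter windows of the same length, and 0.192% of those windows held as many. The Hhex window held 2. At least 1 ETS core was present in 93.4% of all windows, CGGAAG in 13.6%, AGATAA in 9.99%, CANNTG in 66.2% and ACAATG in 10.7%. A GGAA inside CGGAAG counts for both motifs. Neither the Etv2 nor the Hhex window held any of the 4 longer motifs. Erg had 3 annotated starts, with 0, 4 and 2 ETS cores, and 1 of them also held 1 GATA motif, 2 E-boxes and 1 SOX motif. A match is a run of letters, not a measured binding site, and the ETS core was added to the search after the longer motifs had been read. Fli1, Ets1, Sox7, Sox17 and Sox18 are named only.

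Both arrays of replicate number 3 differed from the rest in array controls: the 18S ribosomal RNA probe set read 11.93 and 12.10 against 8.51 to 9.39 on the other 4. The control for the 5' end of Gapdh read 12.93 on both, against 10.19 to 11.11 on the other 4. That for its 3' end read 14.37 to 14.49 on all 6 arrays. The part of these differences in the values of number 3 was not tested. Array medians lay between 5.71 and 5.77. Array deviations from the genotype's mean, across probe sets, correlated between same-numbered arrays at 0.698, 0.350 and 0.446, so same-numbered arrays are also compared as pairs. Ldb1 itself, read by 1 probe set, did not pass the test (7.80 ± 0.50 in wild type and 7.37 ± 0.83 in knockout, SD, n = 3; limma, adjusted p = 1.00). By pair Ldb1 differed by −0.53, −0.71 and −0.06 (limma with the replicate number as a block, unadjusted p = 0.0332, adjusted p = 0.481). Where in the gene the deletion lies is not stated in the labels, so these values do not check the genotype. Kdr, the sorting marker, read between 11.33 and 12.44 on all 6 arrays. By pair it differed by −0.25, −0.81 and −0.20 (limma with the same block, unadjusted p = 0.0362, adjusted p = 0.493). Of 15 endothelial markers 9 had a mean above the median of all probe set values, and Pecam1, Emcn and Tie1, read at 3.68 to 5.41, were not among them. In bulk RNA, fewer cells of a type and less RNA per cell cannot be told apart.

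None of the 8 genes passed the test between genotypes, and the spread between replicates was wide for most of them. In limma 0 of 8 members were called (background 0.022% of genes), and 0 had an unadjusted p under 0.05 (background 3.85%). With the replicate number as a block, again 0 were called (background 0.341%). At an unadjusted p under 0.05 the block gave 3 members, Fli1, Sox17 and Hhex (background 8.94%). No member had groups of arrays that did not overlap (background 7.92%), and in Fli1 and Sox17 each knockout array lay below its partner (background for one side in all pairs 28.5%). The median difference over the members was −0.31, with 7 of 8 lower in knockout, against −0.01 over all genes, of which 53.7% were lower. The median depended on which arrays were used. With 1 array left out it ran from −0.79, without knockout replicate 1 (7 lower), to 0.18, without knockout replicate 3 (3 lower and 5 higher). In the blocked fit without both arrays of number 1 it was −0.73, with 7 lower and 5 members at an unadjusted p under 0.05 (background 5.16%). Without number 2 it was −0.40, with 6 lower and 4 such members (background 7.65%). Without number 3 it was −0.05, with 5 lower and 3 such members (background 16%).

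**Figure D1:**
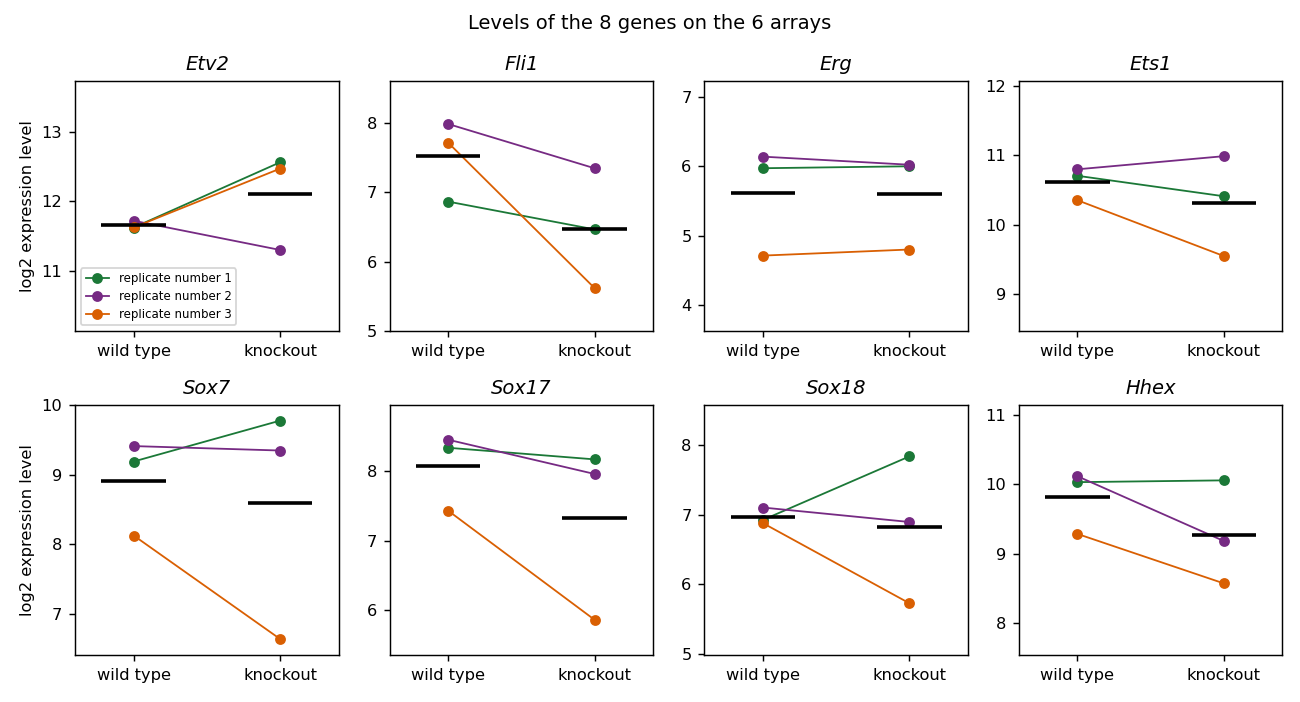
Log2 expression level of each gene on the 6 arrays, wild type at left and knockout at right, with same-numbered arrays joined by a line and the mean of each genotype as a black bar; every axis spans the same number of log2 units around a different centre. Etv2 varied least in wild type (11.62 to 11.72), and the lowest values of Fli1, Ets1, Sox7, Sox17, Sox18 and Hhex were those of knockout replicate 3.

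Etv2, the first ETS factor of the programme, was strongly expressed in both genotypes. It read 11.62, 11.72 and 11.63 in wild-type arrays 1 to 3 and 12.56, 11.30 and 12.47 in knockout arrays. The wild-type values were nearly equal (SD 0.06) while the knockout values spread more widely (SD 0.70), with numbers 1 and 3 above and number 2 below every wild-type array. The means were 11.66 and 12.11, a difference of 0.46 (SE 0.33, 95% interval −0.34 to 1.25; limma, adjusted p = 1.00), or 1.37-fold. By pair it was 0.94, −0.42 and 0.85. Without knockout replicate 2 the difference was 0.86 (limma, adjusted p = 0.411), without knockout replicate 1 it was 0.23 and without knockout replicate 3 it was 0.28. Etv2 was the 1 member whose mean was higher in knockout.

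Fli1, a later ETS factor of endothelium and megakaryocytes, had the largest mean difference of the set. It read 6.86, 7.98 and 7.71 in wild type and 6.46, 7.34 and 5.62 in knockout. The knockout array was the lower one in each pair, but wild-type replicate 1 lay below knockout replicate 2, so the groups overlapped. The means were 7.52 ± 0.58 and 6.47 ± 0.86 (SD, n = 3), a difference of −1.04 (SE 0.47; limma, adjusted p = 1.00). With the block the adjusted p was 0.347 (SE 0.31, unadjusted 95% interval −1.79 to −0.30). By pair the difference was −0.40, −0.64 and −2.09, so that most of it lay in number 3. Without knockout replicate 3 it was −0.61. With both arrays of number 2 or of number 3 left out, the blocked fit on the remaining 2 pairs called Fli1, at −1.25 (limma, adjusted p = 0.0363; background 1.47%) and −0.52 (adjusted p = 0.0483; background 4.48%). Left out instead, number 1 gave −1.37 with an adjusted p of 0.188 (background 0.275%). The second Fli1 probe set had a mean of 6.19 and pair differences of 0.07, −0.76 and −1.30, so the pair of number 1 was not lower there.

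Ets1, a broadly used ETS factor of endothelium and lymphocytes, and Erg, which maintains endothelium and blood stem cells, did not pass the test either. Ets1 read 10.70, 10.80 and 10.35 in wild type and 10.41, 10.99 and 9.55 in knockout. Knockout replicate 3 was the one array clearly below the rest. The difference was −0.30 (SE 0.35; limma, adjusted p = 1.00), and 0.08 without knockout replicate 3. Erg read 5.97, 6.14 and 4.72 in wild type and 6.00, 6.03 and 4.81 in knockout. Its values followed the replicate number and not the genotype, with pair differences of 0.03, −0.12 and 0.09. The mean difference was 0.00 in size, with a 95% interval of −1.13 to 1.13, or −0.30 to 0.30 with the block. The Erg probe set lay close to the median of all probe set values, and its 2 arrays of number 3 lay below it.

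Sox7 and Sox17 had the widest ranges over the arrays. Sox7, an early SOXF factor of haemogenic mesoderm, read 9.19, 9.41 and 8.13 in wild type and 9.78, 9.35 and 6.64 in knockout. Its range of 3.14 was the largest of the 8, and its difference of −0.32 (SE 0.82; limma, adjusted p = 1.00) turned to 0.65 without knockout replicate 3. By pair it was 0.59, −0.06 and −1.49.

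Sox17, an arterial and haemogenic factor and also an endodermal one, read 8.34, 8.45 and 7.43 in wild type and 8.17, 7.96 and 5.86 in knockout. Each knockout array lay below its partner, with pair differences of −0.17, −0.49 and −1.57, and the groups overlapped. The difference was −0.74 (SE 0.63; limma, adjusted p = 1.00), with an adjusted p of 0.445 with the block. Without knockout replicate 3 it was −0.01.

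Sox18, a factor of lymphatic and vascular endothelium, read 6.92, 7.10 and 6.88 in wild type and 7.84, 6.89 and 5.73 in knockout. As for Etv2, the wild-type arrays were close together (SD 0.12) and the knockout arrays were not (SD 1.06), with number 1 above and number 3 below every wild-type array. The difference was −0.15 (SE 0.48; limma, adjusted p = 1.00), and 0.40 without knockout replicate 3. Among the SOXF genes the pair differences of number 1 were thus 0.59, −0.17 and 0.91, and those of number 3 were −1.49, −1.57 and −1.15.

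Hhex, the homeobox member, read 10.03, 10.11 and 9.28 in wild type and 10.05, 9.18 and 8.57 in knockout. Knockout number 1 matched its wild-type partner, while numbers 2 and 3 were lower by 0.93 and 0.71. The difference was −0.54 (SE 0.40; limma, adjusted p = 1.00), with an adjusted p of 0.473 with the block. Without knockout replicate 3 it was −0.19, and without knockout replicate 1 it was −0.93.

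**Figure D2:**
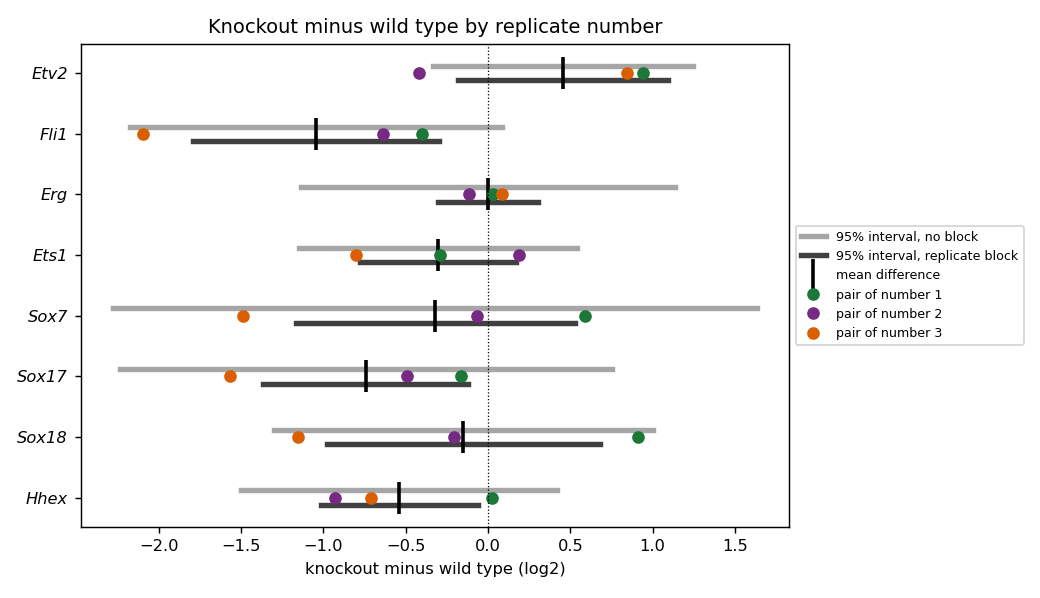
Knockout minus wild type in log2 units for each gene: coloured points are the pairs of same-numbered arrays, black ticks the mean difference, and grey bars the unadjusted 95% intervals of limma without the block (light) and with it (dark). The light bars all include 0, and the dark bars of Fli1, Sox17 and Hhex do not.

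Most members were low on the arrays of replicate number 3. On the probe set used, that array was the lowest in both genotypes for 6 of 8 members. They were Erg, Ets1, Sox7, Sox17, Sox18 and Hhex. This pattern was seen in 24.6% of all genes and in 31.9% of genes above the median level. Over the other gene lists its share ran from 6.67% of definitive endoderm markers to 56.25% of cofactors of ETS and SOXF proteins. Among the dimmer probe sets of Erg, Ets1, Sox7 and Sox17, only the second of Ets1, with a mean of 10.09, showed this pattern. Averaged over both genotypes, number 3 minus the mean of numbers 1 and 2 was −2.05 for Sox7, −1.58 for Sox17 and −1.27 for Erg. Number 3 was lower by at least 1 in 3 of 8 members, in 2.84% of all genes and in 4.30% of genes above the median level. The median over the members was −0.90, against −0.04 over all genes and −0.13 over genes above the median level. For the last set it was −0.21 within wild type and −0.08 within knockout. Etv2 was the exception, at 0.25. The gap of number 3 to the others was lower in knockout than in wild type for Fli1, Ets1, Sox7, Sox17, Sox18 and Hhex. It was −2.93 in knockout and −1.18 in wild type for Sox7, and −1.64 and −0.13 for Sox18. Whether these gaps differ between genotypes was not tested, since each rests on 1 array.

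The members varied more over the 6 arrays than most genes. All 8 had a range of at least 1, as did 20.7% of all genes, and the median range was 1.83 against 0.609. Of 15 endothelial markers 8 had such a range, and their median range was 1.22. Of the members 7 had a mean above the median of all probe set values. The range of all genes above that level was not computed. The SD was larger in knockout than in wild type for 7 of 8 members, all but Erg, and for 44.8% of all genes. Endothelial markers shared this trait, in 13 of 15. Among the members the SD ran from 0.06 to 0.78 in wild type and from 0.70 to 1.70 in knockout. Within wild type, number 2 was the highest array for all 8 members, but the share of all genes with this pattern was not computed.

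**Figure D3:**
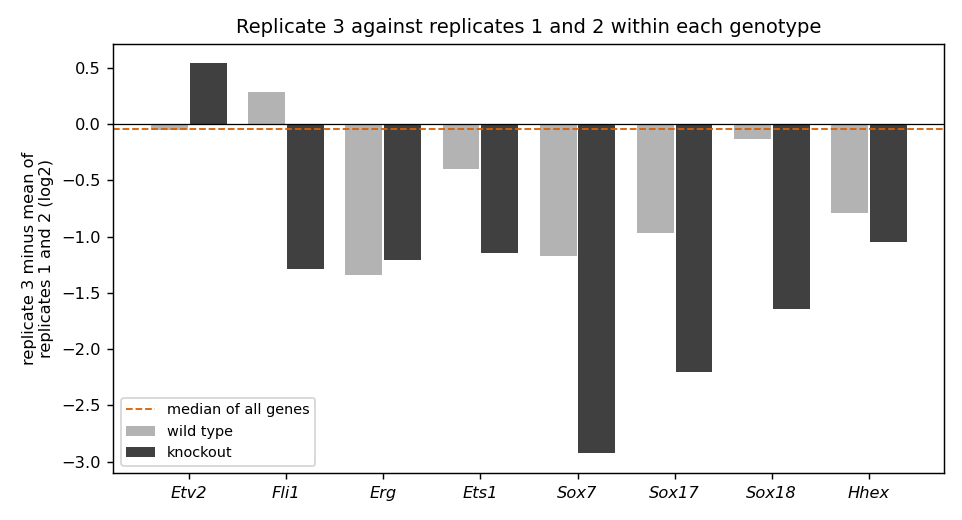
Replicate 3 minus the mean of replicates 1 and 2 in log2 units, within wild type (light bars) and within knockout (dark bars), with the median of all genes (−0.04) as a dashed line. Sox7 and Sox17 showed the deepest knockout values (−2.93 and −2.20), and Etv2 alone lay above 0 in knockout (0.54).

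Some other markers also differed on knockout replicate 3. Pou5f1 and Nanog, core pluripotency factors, read 10.82 and 9.26 there, against 8.85 to 9.65 and 7.78 to 8.10 on the other 5 arrays. Over 12 pluripotency markers the mean level was 8.49 on that array, against 8.37 and 8.15 on knockout replicates 1 and 2. In wild type it was 8.05 to 8.31. The rise was not shared by most of the list: in knockout, number 3 minus the mean of numbers 1 and 2 had a median of −0.12. Of these markers 10 had a mean above the median level. The 15 endothelial markers had a mean level of 5.64 on knockout replicate 3, against 6.61 and 6.89 on the other knockout arrays and 6.13 to 6.35 in wild type. Cdh5, the endothelial cadherin, read 5.86, 5.87 and 5.21 in wild type and 7.32, 7.13 and 4.49 in knockout. Its low knockout array was the same one as for the SOXF genes. The part of these shifts in the members' values was not tested.

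The mean level of definitive endoderm markers was not lowest on knockout replicate 3. Over 15 such markers the mean level was 8.38, 7.74 and 7.57 in wild type and 8.38, 7.33 and 8.11 in knockout. The list's pair median was 0.41 for number 3, and Sox17 and Hhex were at −1.57 and −0.71. Over the list, number 3 minus the mean of numbers 1 and 2 had a median of −0.51 in wild type and 0.04 in knockout. Which cells the Sox17 and Hhex differences came from was not tested. Foxa2, which defines endoderm, read 4.75 to 5.72 on all arrays and Cer1 5.16 to 6.16. Gsc differed by 0.72 and Cdh1 by 0.66, and in limma 0 of the 15 were called without or with the block. At an unadjusted p under 0.05 there were 0 and 3 (background 3.85% and 8.94%). Gata6 and Eomes, the highest, are shared with mesoderm. Of 12 visceral endoderm markers 11 were lower (53.7% of all genes were), 5 had a mean above the median level, and the median was −0.16. Spink1 was the 1 called with the block, at −1.31 (limma, blocked adjusted p = 0.0238, unblocked 0.667), and Rbp4 differed by −0.92 (blocked adjusted p = 0.0910). Ttr and Afp, which define that tissue, read 5.97 to 6.71 and 4.62 to 5.52.

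Among the other ETS genes 0 of 20 measured were called without or with the block, with 12 lower and 8 higher. Elk3, an ETS repressor of endothelium, differed by 0.81 and was higher in all 3 pairs (1.01, 0.73 and 0.70; limma, blocked adjusted p = 0.0910, unblocked 1.00). Its wild-type arrays read 9.01, 9.13 and 8.16 and its knockout arrays 10.02, 9.86 and 8.86, so that number 3 was low in both. Elk4 differed by 0.38, Elf2 by 0.23 and Gabpa, a housekeeping ETS factor, by 0.12. Ets2, which is the coding gene next to Erg on chromosome 16 and was chosen after its values were seen, read 10.06, 10.09 and 9.09 in wild type and 10.02, 9.78 and 8.42 in knockout. Fli1 and Ets1 are likewise neighbours, on chromosome 9.

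Of 17 other SOX genes 0 were called in either fit, with 8 lower and 9 higher and a median of 0.01. Sox2, a pluripotency and neural factor, differed by 0.71 and Sox13 by 0.48 (limma, blocked adjusted p = 0.427 and 0.456). Sox4 and Sox11, SOXC genes of progenitors, differed by 0.02 and −0.37. For this list number 3 lay 0.01 above numbers 1 and 2 in the median, and for the other ETS genes −0.03, against −0.90 for the 8 members. Low medians were not particular to the members. Cofactors of ETS and SOXF proteins were at −0.69, listed targets of ETV2 or FLI1 at −0.50 and endothelial markers at −0.40. The lists share genes, so their medians are not independent. Every endothelial marker but Vwf is also a listed target, and Gata2, Kdr, Mesp1, Foxc1 and Foxc2 each stand in more than 1 list. Cardiac mesoderm markers were at −0.45 and genes of mesoderm induction and Etv2 regulation at −0.43. Blood, definitive endoderm, visceral endoderm and pluripotency markers were at −0.09, −0.08, 0.09 and 0.22.

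A list of 17 genes of mesoderm induction and Etv2 regulation, 16 of them measured, included 1 that fell with the block. Hoxb6, a homeobox gene of the posterior mesoderm, read 5.86, 5.95 and 6.08 in wild type and 4.50, 4.92 and 4.35 in knockout. All knockout arrays lay below all wild-type arrays, at −1.38 (limma, blocked adjusted p = 0.0319, unblocked 0.148). The other 15 measured of the list were not called, among them Bmp4, the ligand that induces this mesoderm, at −0.29, Mesp1 at −0.55 and Kdr at −0.42. The list held 10 lower and 6 higher genes with a median of −0.14.

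Of 27 measured genes listed as targets of ETV2 or FLI1, 13 were lower and 14 higher, with a median of 0.01. Gata1, the erythroid regulator, was the 1 called with the block, at −1.31 (limma, blocked adjusted p = 0.0194, unblocked 0.0542). Meis1, a homeobox cofactor, differed by −1.49 (blocked adjusted p = 0.0910) and Lmo2, the LDB1 partner, by 0.62 (blocked adjusted p = 0.532). By pair the list's median was 0.31, 0.08 and −0.43, and that of the members 0.03, −0.31 and −0.98. Among 16 cofactors of ETS and SOXF proteins 0 were called in either fit, with a median of −0.04. Mef2c, a MADS factor of heart and vessels, differed by −1.01 (blocked adjusted p = 0.319), Foxc1 by −0.39, Fos by −0.10 and Ctnnb1 by −0.06.

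Blood markers had a lower mean level on every knockout array than on any wild-type array. Of 15 blood markers 13 were lower (53.7% of all genes were), with a median of −0.90. Their mean level was 6.61 to 6.72 in wild type and 5.26 to 5.64 in knockout. In limma 1 was called without the block (background 0.022%), Hbb-bh1, an embryonic globin gene. With the block 6 were called (background 0.341%), Gata1, Gfi1b, Hbb-bh1, Hbb-y, Myb and Ikzf1. Itga2b was at −0.90. The pair medians of this list were −0.85, −1.12 and −0.85. Cardiac mesoderm markers had a median of −0.40 over 15 genes, with Hand2 called with the block, and Mesp1, Myl7 and Pdgfra at −0.55, −1.44 and −0.01. Among pluripotency markers Dppa5a was called with the block, at 1.20 (limma, blocked adjusted p = 0.0315, unblocked 0.148), and Zfp42, Tdgf1 and Lin28a differed by 0.78, −0.14 and −0.04.

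**Figure D4:**
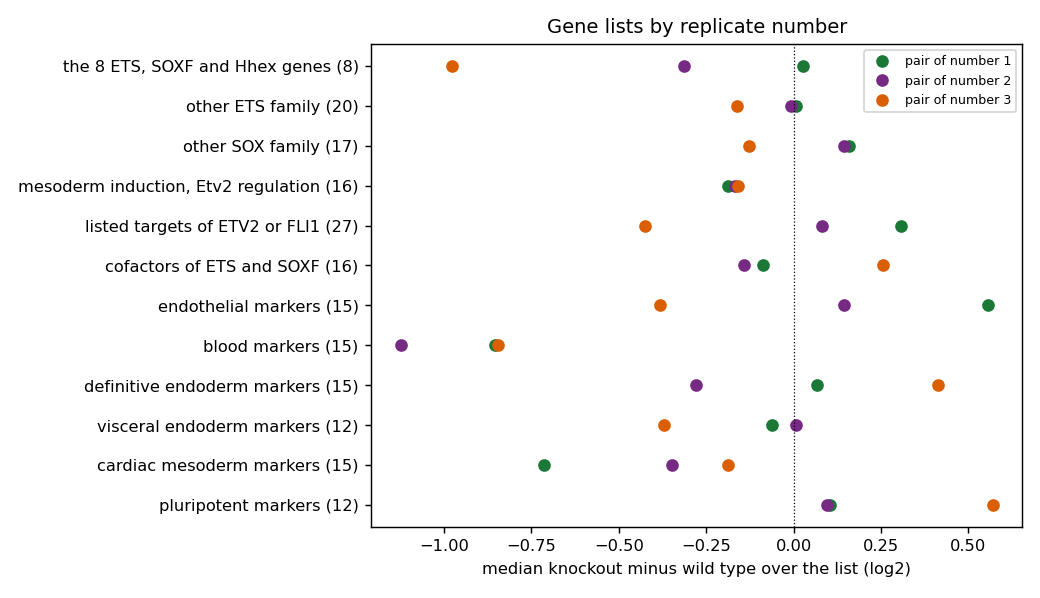
Median knockout minus wild type in log2 units over each gene list, by pair of same-numbered arrays; the number of measured genes stands in brackets. Blood markers lay between −1.12 and −0.85 in all 3 pairs, while the 8 members ran from 0.03 in number 1 to −0.98 in number 3. Some genes stand in several lists, and most endothelial markers are also listed targets.

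In each of the 5 genes with several probe sets, the one used had the widest range of levels over the 6 arrays. For Sox7 the second probe set, with a mean of 5.05, had a range of 0.211, where the first had 3.14. Both Sox17 probe sets carry a mark of probes that may bind several transcripts. The second, with a mean of 6.00, differed by −0.31 and had pair differences of 0.22, −0.01 and −1.15. Number 3 was thus the lowest knockout array on both. In wild type the second Sox17 probe set read 6.58 on number 3, above the 5.85 and 6.04 of the others, the opposite of the first. The 4 Ets1 probe sets differed by −0.30, −0.20, −0.01 and −0.23, and the second of Erg by −0.10, with pair differences of 0.44, −0.15 and −0.58. Of all 15 probe sets, 0 were called without the block (background 0.0222% of probe sets) or with it (background 0.0555%).

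**Figure D5:**
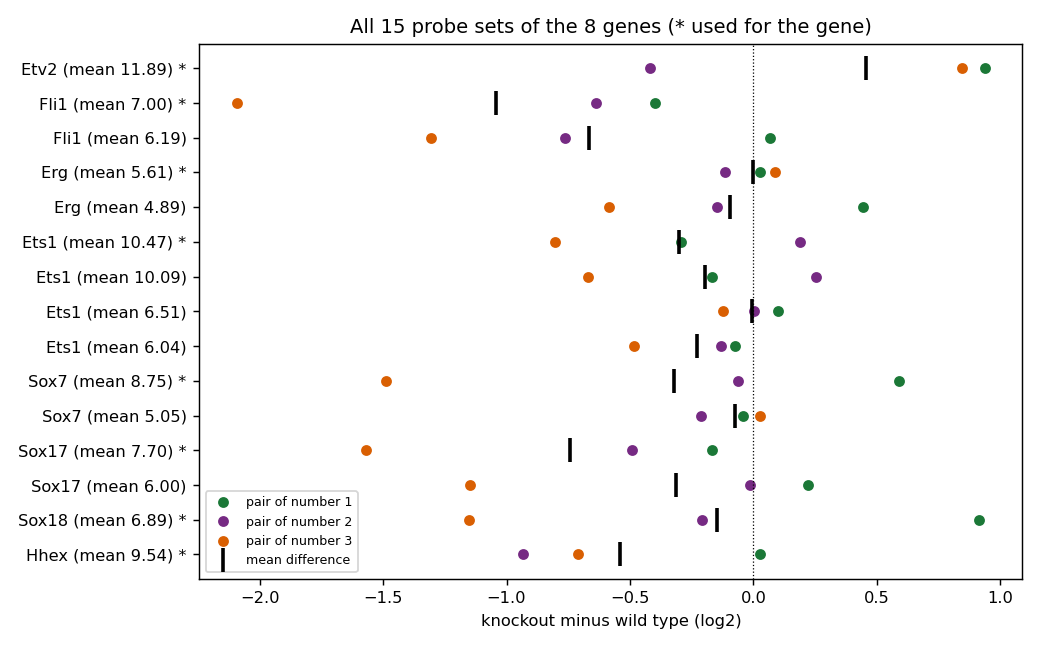
Knockout minus wild type in log2 units for the 15 probe sets of the 8 genes, by pair (points) and as a mean (ticks); the mean log2 level of each probe set stands in brackets and an asterisk marks the one used for the gene. The pairs of the second Sox7 probe set lay closer together (−0.21 to 0.03) than those of the one used (−1.49 to 0.59), those of the second Erg probe set lay further apart (−0.58 to 0.44 against −0.12 to 0.09), and both Fli1 probe sets had a mean below 0.

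The genes with the most similar profiles were sought for all 8 members by the root mean square difference over the 6 arrays, after each gene's own mean was removed, among 11214 genes above the median level (11215 for Erg). The nearest to Sox7 was Sox17, at 0.335, which is also the closest pair among the members; Dcaf12l1 was next at 0.346. For Etv2 the nearest were Junb, an immediate early transcription factor, at 0.142 and Dusp2, a MAP kinase phosphatase, at 0.156. Junb read 7.03, 6.85 and 7.18 in wild type and 7.96, 6.78 and 8.00 in knockout, with the same high numbers 1 and 3. For Fli1 they were Prkar2b, a regulatory subunit of protein kinase A, at 0.291 and Calcrl, the adrenomedullin receptor of endothelium, at 0.305. Sox17 lay nearest to 2210408K08Rik (0.111) and Cbfa2t3 (0.302), a corepressor of the LDB1 complex. The pairs for the others were Fam120c and Ifngr2 for Erg, Scd1 and Pcyt1b for Ets1, Mtss2 and Nkx1-2 for Sox18, and Slc7a8 and Plcxd2 for Hhex, at 0.10 to 0.25. These distances come from 6 arrays that share replicate numbers and are given as a description.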

How the data were processed

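Flk1-positive cells from day 4 embryoid bodies were measured on 6 Affymetrix whole-genome mouse arrays, 3 per genotype. The deposited values are log2 levels per probe set; per the submitters' processing notes the authors used RMA and affy, with no versions given. The upper quartile of the deposited values was 7.92 on wild-type replicate 3 and 8.14 to 8.27 on the other arrays. The scaling between arrays is not known in full. Symbols were updated by gene ID to GRCm38.p6. Of 45101 probe sets, 932 with several genes, 9160 with none and 64 controls were not used as genes.

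Knockout was compared with wild type by limma 3.58.1 in R 4.3.3 (lmFit, eBayes), with Benjamini-Hochberg adjustment over 18193 genes and a threshold of 0.05. An alternative fit had the replicate number as a block, because every same-number correlation was above 0.1 and every array matched its own number best; what the numbers stand for is not in the labels. The labels call the arrays biological replicates; p-values measure the spread between them. Other alternatives were each array or each number left out, filters on dim and unspecific probe sets, averaged probe sets, other scalings and variance models, and array weights. On simulated data with 18193 genes the fit recovered 21% of changes of 1 and 77% of changes of 2 (blocked 31% and 76%), with 0 and 1 false calls. The changed genes were drawn at random from all genes, so these rates need not hold for the 8 members, which spread more. Their median SD was 0.51 in wild type and 0.80 in knockout, against 0.22 and 0.19 over all genes. The number of arrays limits the precision.

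Named genes were all 8 members with every probe set, and from each list those called in either fit, the 2 with the largest difference and the 2 highest, the 2 nearest profiles of each member with a range of at least 1, and Ldb1, Kdr and defining markers; genes that no statement needed were left out. Foxa2, Cer1, Ttr, Afp, Pecam1, Emcn, Tie1, Pou5f1 and Nanog were named as defining markers, after their values were seen. The members and lists were chosen with earlier results of these data known. Figures used matplotlib 3.10.9 in Python 3.11.15.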

Additional observations from a re-analysis of the deposited data

How the results depend on the processing

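With the replicate block the count of members called stayed at 0 and no member changed its call; the count over all genes went from 4 to 62. Members called stayed at 0 in 17 of 19 alternatives, and were 1 (Fli1) in the blocked fit without both arrays of number 2 or of number 3. The counts over all genes were 50, 267 and 815 in the blocked fit without the arrays of number 1, 2 or 3. They were 68 with array weights, and 48 and 50 with the block and averaged probe sets or no unspecific ones, both chosen after seeing the data. With 1 array left out members called stayed at 0, and the count over all genes ran from 1 to 6. The cause of these shifts was not tested.

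Etv2 was higher and Fli1, Sox17 and Hhex were lower in every alternative that gave a value (19, 19, 17 and 19); Sox17 has no probe set left where those that may bind several transcripts, both of its own, are left out, and Erg none above the median level. With 1 array left out the differences ran from 0.23 to 0.86 for Etv2, −1.48 to −0.61 for Fli1, −0.45 to 0.40 for Erg, −0.64 to 0.080 for Ets1, −0.92 to 0.65 for Sox7, −1.16 to −0.01 for Sox17, −0.66 to 0.40 for Sox18 and −0.93 to −0.19 for Hhex. Without both arrays of number 3 Sox7 turned to 0.26 and Sox18 to 0.35 with the block. Erg, at 0.00 in size, turned to 0.058 without number 2, to 0.044 with quantile normalisation and to 0.00038 with array medians subtracted. The Etv2 difference was 0.08 with array weights, and 0.89 in the blocked fit without number 2 (limma, adjusted p = 0.0547).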
